A study of Cannabis sativa with 6 samples.

Results

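The genes described here were read in male flowers of feral hemp (Cannabis sativa) and were nearly absent from female flowers. Their levels in the 3 male libraries lay within 3 times of each other. Levels are CPM (counts per 1e6), the reads assigned to a gene scaled by all reads assigned to genes in that library. Genes were chosen by their measured levels in both sexes. A gene was taken when it stood under 0.5 CPM in each female library and at 5 CPM or more in each male library, and when its highest male CPM was at most 3 times its lowest. The rule chose 75 of 29777 genes. Because these values chose the genes, they are given as a description and no test is attached to them.

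Hemp is a dioecious plant, with female and male flowers on separate individuals and an XY sex chromosome system. A male flower carries stamens, whose anthers hold the nursing tapetum layer and the developing pollen. Female flowers have no stamens, so genes used only in stamens or pollen are read in male flowers and not in female ones. In whole-flower RNA, fewer cells of a type and less RNA per cell cannot be told apart. CPM is not corrected for transcript length, so an order of genes by CPM is an order by reads, not by transcript number.

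The 6 libraries were 3 female and 3 male flower samples without treatment, with a female and a male library from each of the Nebraska locations Knox, Madison and Merick. All plants, per the labels' protocols, grew in pots for 10 weeks at a day length of 16 hours, which was then cut to 11 hours to bring on flowering. No genotype, plant age or flower stage is given there, nor how many plants made up a library, so a spread between libraries may hold more than plant-to-plant variation. The count tables name these genes by NCBI LOC symbols only. No gene of the rule has a common name or a description in the RefSeq gene table used here, so no role is assigned to any of them and the tissue could not be checked against known stamen or pollen markers.

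Gene counts ran from 26945432 to 38672535 in the females and from 40334171 to 46045338 in the males. The Merick male stood apart. On the log2(CPM + 0.5) scale it correlated across genes at 0.81 with the Knox male and 0.85 with the Madison male, which correlated at 0.95 with each other, and at 0.83 to 0.84 with the females. For the Knox and Madison males the correlations with the females were lower, at 0.65 to 0.69. Females correlated at 0.93 to 0.95 among themselves. No 2 libraries of a sex agreed within sampling noise. The rule asks for evenness in all males, so what it chose depends strongly on the Merick male: 343 genes met it when that library was left out, 173 when the Knox male was, and 88 when the Madison male was. All 75 genes were among them each time, since leaving out a library can only loosen the rule.

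Together the 75 genes took 0.45% of gene counts in the Merick male, 0.67% in the Knox male and 0.64% in the Madison male. Their summed level was 4527, 6716 and 6395 CPM in that order, against 7.01, 4.17 and 5.07 CPM in the Knox, Madison and Merick females. Among the males, the Merick library was the low one for the sum. The mean male level of a gene ran from 5.72 to 795 CPM with a median of 32.4. It was at least 100 CPM for 14 genes, from 20 to under 100 for 32, and under 20 for 29.

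**Figure D1:**
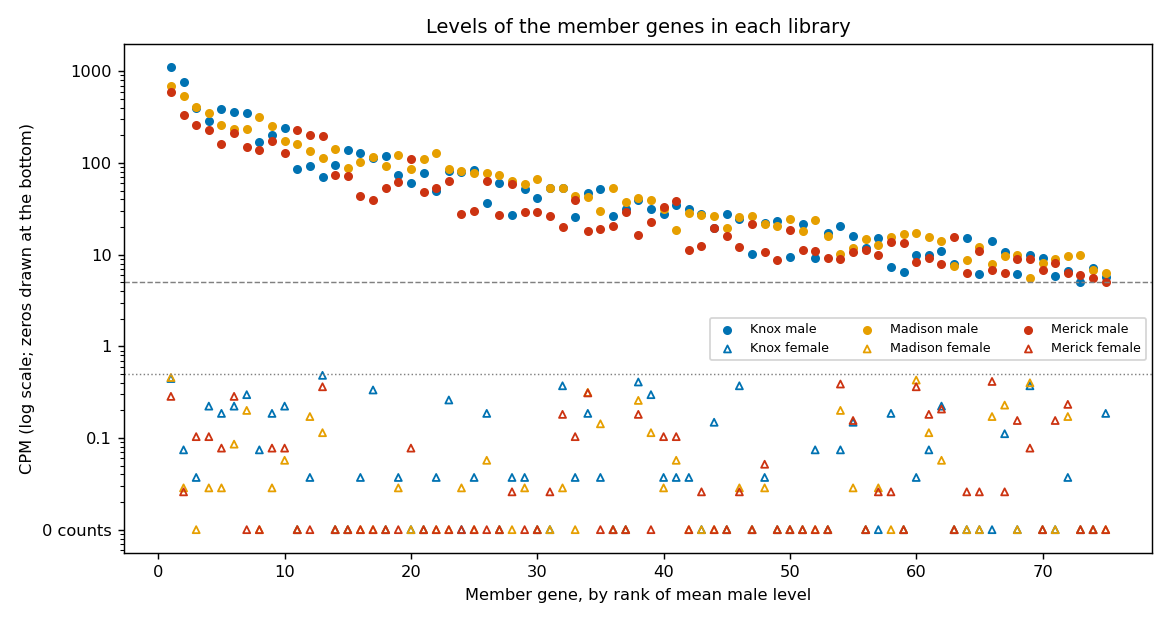
CPM (log axis) of the 75 genes in each library, ordered by mean male level; filled circles are males, open triangles are females, and zeros are drawn at the bottom, where they overlap. The dashed line is the male limit of 5 CPM and the dotted line the female limit of 0.5 CPM; Merick circles often lie lowest among the males.

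Reads were concentrated in few genes. The 5 genes with the highest mean held 34.6% of the group's counts in the Merick male, 43.9% in the Knox male and 34.9% in the Madison male. LOC115699486, a protein-coding gene on chromosome 8 of the Pink pepper assembly, held the most. It stood at 1111 CPM in the Knox, 685 in the Madison and 589 in the Merick male, and at 0.45, 0.46 and 0.28 CPM in the Knox, Madison and Merick females. The female values came from 39 reads in all, the most of any of the 75 genes, and the Knox and Madison values lay just under the female limit. The pooled male level was 2026 times the pooled female level (95% Poisson interval 1482 to 2849, for counting error only).

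LOC115725284, protein coding on chromosome 6, was the second by mean level. Its male values were 757 CPM in Knox, 536 in Madison and 332 in Merick, and its female values 0.074, 0.029 and 0.026 CPM in the same order. Only 4 female reads were assigned to it, which gives a ratio of 13391 (5230 to 49150). That was the highest ratio among the 54 genes with any female read. It was also steeper among the males than LOC115699486, with the highest male at 2.28 times the lowest against 1.89 times.

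Of the 8 genes with the highest level in their lowest male, 4 lay on chromosome 8. Besides LOC115699486 these were LOC115700971, LOC115698565 and LOC115701149. LOC115700971 stood at 400 CPM in the Knox, 403 in the Madison and 258 in the Merick male, with 5 female reads. LOC115698565 stood at 289, 347 and 228 CPM in that order with 11 female reads, and LOC115701149 at 358, 235 and 213 CPM with 20. In all of these the Merick male was lowest, and the order of the Knox and Madison males varied.

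The rest of the 8 lay on other chromosomes. LOC115706706, on chromosome 1, stood at 392 CPM in the Knox, 262 in the Madison and 160 in the Merick male. LOC115717100, on chromosome 5, stood at 348, 236 and 151 CPM in that order. LOC115714657, on chromosome 4, stood at 201, 250 and 175 CPM and was the most even of the 8, with the highest male at 1.43 times the lowest. Each of these again had its lowest male value in Merick, and all 3 are listed as protein coding.

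In females, 21 of the 75 genes had no read in any library, 16 had 1 to 3 reads over all of them, and 38 had more than 3. The Knox female had a read for 44 of the genes, the Madison female for 33 and the Merick female for 36. A count of 0 allows up to 3 reads per library, which is 0.11, 0.086 and 0.078 CPM in the Knox, Madison and Merick females. Genes without a female read had a median mean male level of 19.4 CPM, against 34.7 for the others, but they ranged from 6.48 to 158 CPM. Across the 75 genes, female and male read counts had a Spearman correlation of 0.083. Among the other 153 male-restricted genes, which met the first and second limits and failed the third, 17 had no female read (11.1%, against 28.0% here). Those 153 genes had a higher median mean level, 106 CPM, so the comparison is not at equal level.

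Against a floor of 3 reads over all females, the male excess of the 21 genes without a female read was at least 216-fold for the lowest and at least 5401-fold for the highest. LOC115695248, protein coding on chromosome 6, had the highest bound. It stood at 86.7, 161 and 227 CPM in the Knox, Madison and Merick males, with the Merick male highest. LOC115695340, also on chromosome 6, was at least 3429-fold higher, at 95.9 CPM in the Knox, 141 in the Madison and 73.4 in the Merick male. LOC115723980, on chromosome 9, was at least 3292-fold higher, at 138, 88.6 and 71.5 CPM in that order. These 3 genes were named for having the highest bounds, after their values were seen.

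At the other end, LOC115714655 on chromosome 4 had the lowest ratio between the sexes, 30.3 (20.7 to 46.2). It stood at 9.82 CPM in the Knox, 5.53 in the Madison and 8.97 in the Merick male, and at 0.37, 0.40 and 0.078 CPM in the Knox, Madison and Merick females. Over all 75 genes the median ratio was 729, with genes without a female read set at their lower bound. All 75 passed the low-count filter and were called higher in male flowers by edgeR's quasi-likelihood test at an adjusted p under 0.05, beside 12.6% of the 19276 genes tested. With 1 library left out, between 46 of the 75 genes (without the Madison male) and all 75 (without the Merick male) were called. It was 55 without the Knox female, 51 without the Madison female, 64 without the Merick female and 71 without the Knox male. Of all genes tested in those fits, 0.572% to 23.2% were called. The rule used this contrast, so nothing is read from these counts. Their median fitted log2 fold change was 10.99, against 0.00025 over all tested genes, a contrast that the rule also set. The median fell on LOC115719153, which had no female read and a bound of at least 216-fold. For genes without a female read the fitted value is not a measured ratio. The median ratio of 729 given above is 9.51 on the log2 scale.

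Evenness among males was uncommon in male-restricted genes. Of the 228 genes that met the female and male limits, 75 (32.9%) kept within 3 times from the lowest to the highest male. Of the other 11900 genes at 5 CPM or more in each male, 9856 (82.8%) did. The median ratio of highest to lowest male was 4.73 in the 228 genes and 1.72 in the 11900. In 68 of the 228 genes the ratio was over 10.

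The share of even genes moved with single males. Without the Merick male, 343 of 384 male-restricted genes (89.3%) were within the limit, against 98.2% of other genes. Without the Knox male it was 173 of 279 (62.0%, against 87.2%), and without the Madison male 88 of 230 (38.3%, against 85.5%). With 2 males left the limit is easier to meet, so each share could rise from that alone. In each of these settings the male-restricted genes had the lower share. The choice of male libraries to leave out was added after the data had been examined.

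**Figure D2:**
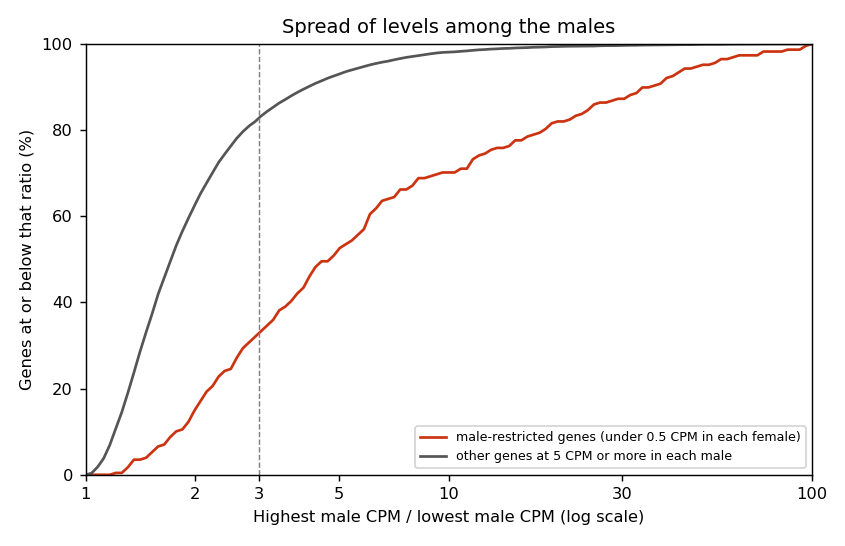
Percent of genes at or below a given ratio of highest to lowest male CPM (log axis), for the 228 male-restricted genes and the 11900 other genes at 5 CPM or more in each male. At the dashed limit of 3 the curves stand at 32.9% and 82.8%.

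Within the 75 genes the ratio of highest to lowest male ran from 1.20 to 2.99. The median of 2.06 was above the 1.72 of the 11900 other genes at 5 CPM or more in each male. The ratio was at most 1.5 in 10 of the 75 genes, over 1.5 and at most 2 in 24, and over 2 in 41. These counts depend on the scaling. With TMM scaling, which sets library sizes by the bulk of genes, 64 of the 75 genes were within 3 times. The ratio was then at most 1.5 in 2 genes, and the median was 2.30, against 1.75 in the 11900. The smallest male count of any gene in the group was 205 reads (95% Poisson interval 178 to 235). The coefficient of variation over the 3 males had a median of 35.8% and ran from 9.09% to 58.4%.

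LOC115720060, protein coding on chromosome 2, was the most even. It stood at 27.7 CPM in the Knox, 31.5 in the Madison and 33.2 in the Merick male (mean 30.8 ± 2.80, SD, n = 3). It had 6 female reads, at 0.037, 0.029 and 0.10 CPM in the Knox, Madison and Merick females. LOC115699960, on chromosome 8 and also among the 4 most even, stood at 31.3, 37.8 and 29.4 CPM in the Knox, Madison and Merick males (32.9 ± 4.42, SD, n = 3), with no female read. The remaining genes of those 4 were among the lowest by reads.

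LOC115719153, on chromosome 2, stood at 7.14 CPM in the Knox, 6.75 in the Madison and 5.56 in the Merick male, with no female read. LOC115697009, on chromosome 7, stood at 5.73, 6.38 and 5.04 CPM in that order, with 5 reads in the Knox female and none in the others. Both lay near the male limit of 5 CPM.

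Even so, the males differed in how often they stood lowest or highest. The Merick male was the lowest of the 3 for 53 of the 75 genes (70.7%), the Knox male for 19 and the Madison male for 3. The Madison male was the highest for 40 genes, the Knox male for 28 and the Merick male for 7. Over the 11900 other genes at 5 CPM or more in each male, the Merick male was lowest for 41.0% and highest for 44.0%. With TMM (trimmed mean of M-values) scaling, which sets library sizes by the bulk of genes rather than by all reads, the Merick male was lowest for 55 of the 75 genes (73.3%) and for 51.0% of the 11900, and highest for 5 of the 75 and 35.1% of the 11900.

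The place of the Merick male was like that in the 153 male-restricted genes over the ratio limit. There it was lowest in 118 (77.1%) and highest in 15 (9.80%). The size of the gap differed, which the rule sets. The median over genes of the ratio of the Merick to the Knox male was 0.72 in the 75 genes and 0.19 in the 153. The median ratio of the Madison to the Knox male was 1.05 in the 75 genes and 1.08 in the 153. The Knox and Madison males were within 1.5 times of each other in 45 of the 75 genes, in 86 of the 153 (56.2%) and in 83.2% of the 11900.

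**Figure D3:**
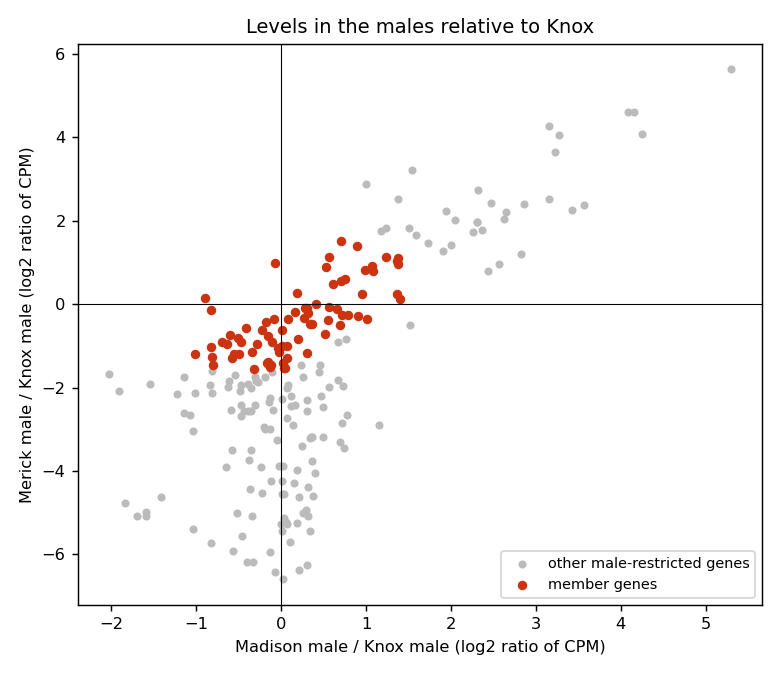
Log2 ratio of the Merick to the Knox male against that of the Madison to the Knox male, 1 point per gene, for the 75 genes and the other 153 male-restricted genes. The 75 genes fill the centre, where the rule places them; most lie below 0 on the vertical axis, and the other genes extend far below and to the upper right.

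Most of the 75 genes followed one of 3 orders. In 27 the order was Knox, Madison, Merick from high to low, in 26 Madison, Knox, Merick, and in 14 Madison, Merick, Knox. The remaining 8 had another order. The Merick level was at least 0.5 times the mean of the other males in 59 genes and above that mean in 18. Its ratio to that mean ran from 0.34 to 2.17, with a median of 0.63.

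The lowest ratio belonged to LOC115697635, protein coding on chromosome 7, at 113 CPM in the Knox, 117 in the Madison and 39.1 in the Merick male. The highest belonged to LOC115697493, also on chromosome 7, at 69.6, 113 and 198 CPM in the same order. Both thus spanned nearly the full range that the rule allows, in opposite directions. LOC115697493 was also the gene closest to the female limit, at 0.48, 0.11 and 0.36 CPM in the Knox, Madison and Merick females.

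The 7 genes with their highest level in the Merick male were LOC115697493, LOC115695248, LOC115720060, LOC115706375, LOC115710368, LOC115697860 and LOC115719213, of which LOC115695248 and the last 4 were named after their values were seen. With TMM scaling, 5 of the 75 genes were highest in the Merick male, and LOC115720060 and LOC115697860 were not among them. LOC115706375, on an unplaced sequence, stood at 92.2 CPM in the Knox, 136 in the Madison and 203 in the Merick male. LOC115710368, on chromosome 3, stood at 60.1, 87.0 and 112 CPM in that order. LOC115697860, on chromosome 7, stood at 34.9, 18.7 and 38.6 CPM, and thus differed from both in having its low value in Madison. LOC115719213, on chromosome 2, stood at 7.91, 7.51 and 15.6 CPM, so that the Knox and Madison males were close and Merick was the one apart.

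The limits of the rule cut through a continuous range. Just inside the ratio limit, LOC115697635, LOC115724766 and LOC115696751 had a highest male of 2.99, 2.96 and 2.92 times the lowest. Just outside it, LOC115716562, LOC115698527 and LOC115710404 had 3.01, 3.05 and 3.06 times. LOC115724766 stood at 80.6 CPM in the Knox, 82.2 in the Madison and 27.8 in the Merick male, and LOC115696751 at 129, 103 and 44.2 CPM, so in both the Merick male was lowest. The Knox and Madison males were close in the first and differed in the second. LOC115716562 had no female read and stood at 63.3, 101 and 33.6 CPM in that order, with the Madison male highest and the Merick male lowest.

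At the female limit, the nearest genes inside were LOC115697493, LOC115699486 and LOC115711464, with highest female levels of 0.48, 0.46 and 0.43 CPM. LOC115711464, on chromosome 3, stood at 10.0 CPM in the Knox, 17.2 in the Madison and 8.34 in the Merick male. The nearest outside were LOC115700845, LOC115704943 and LOC115703100, at 0.51, 0.52 and 0.56 CPM. LOC115703100 stood at 473 CPM in the Knox, 495 in the Madison and 270 in the Merick male, levels that only LOC115699486 and LOC115725284 among the 75 genes exceeded by mean. It missed the rule through the Knox female alone.

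At the male limit, the lowest genes inside were LOC115697009, LOC115695138 and LOC115714655, with lowest males of 5.04, 5.08 and 5.53 CPM. The highest outside were LOC115725681, LOC115705338 and LOC115700279, at 4.96, 4.88 and 4.58 CPM. LOC115695138, on chromosome 6, had no female read and stood at 5.08 CPM in the Knox, 9.87 in the Madison and 5.97 in the Merick male. With a male limit of 2 CPM, 111 genes met the rule, and with 10 CPM, 51 did.

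The RefSeq gene table of the Pink pepper assembly held 72 of the 75 genes (96.0%), close to the 96.7% of all genes at 5 CPM or more in each male. It does not hold LOC115695509, LOC115700071 and LOC115713101. No source used here names the genome build behind the counts, so the table was used for gene type, chromosome and gene order only. Of the 72 genes, 70 are listed as protein coding and 2 as long non-coding RNA (2.78%). The long non-coding share was 0.56% in all genes at 5 CPM or more in each male. In the other male-restricted genes it was 2.72%, and in all counted genes that the table holds 3.57%. A single RefSeq transcript is listed for 59 of the 72 (81.9%), against 65.5% of all genes at 5 CPM or more in each male. That share was 76.9% in the other male-restricted genes and 75.6% in all counted genes that the table holds.

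The long non-coding genes were LOC115707527 on chromosome 1 and LOC115694789 on chromosome 8, named after their values were seen. LOC115707527 stood at 14.0 CPM in the Knox, 7.85 in the Madison and 6.80 in the Merick male, and at 0.41 CPM in the Merick female, 0.17 in the Madison female and 0 in the Knox female. LOC115694789 stood at 7.39, 15.5 and 13.9 CPM in the Knox, Madison and Merick males, with 6 female reads. Both were in the lower part of the group by reads.

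Chromosome 1 held 13 of the 72 genes (18.1%) and chromosome 8 held 12 (16.7%), against 15.8% and 10.9% of all genes at 5 CPM or more in each male. Chromosomes 6 and 7 held 8 each (11.1%, against 7.69% and 6.40%). X held 3 (4.17%), against 11.9% of those genes and 7.48% of the other male-restricted genes. These are shares of few genes and were not tested. The assembly's chromosomes in the table are 1 to 9 and X, so a gene on a Y chromosome would not be placed there.

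**Figure D4:**
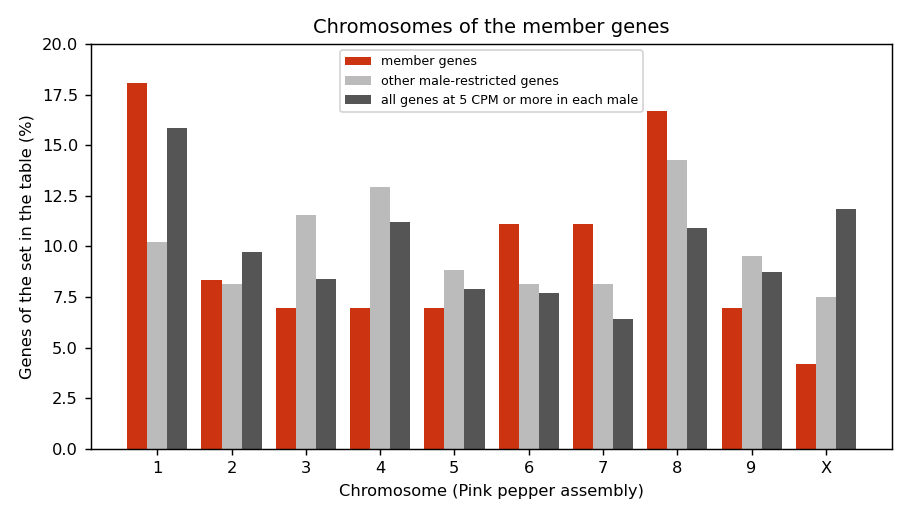
Percent of genes on each chromosome of the Pink pepper assembly, for the 72 genes found in its table, the other male-restricted genes and all genes at 5 CPM or more in each male. Bars of the 72 genes rest on 3 to 13 genes each; X has the shortest, at 4.17%.

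The X genes were LOC115704862, LOC115702402 and LOC115702613, all protein coding and named after their values were seen. LOC115704862 stood at 52.1 CPM in the Knox, 29.9 in the Madison and 19.1 in the Merick male, with 6 female reads. LOC115702402 stood at 31.5, 39.8 and 22.5 CPM in that order with 12 female reads, and LOC115702613 at 22.1, 21.6 and 10.6 CPM with 4. The Merick male was lowest for each, as for most of the group.

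The 3 genes absent from the RefSeq gene table and the 2 on unplaced sequences had no place in its gene order. None of the other genes of the group was the direct neighbour of another. For sets of other genes this was not counted, so it is not read as a trait of the 75 genes. The closest were LOC115719213 and LOC115718851 on chromosome 2, with 2 genes between them, and LOC115695338 and LOC115695340 on chromosome 6, with 3 between them, both pairs named after their values were seen. LOC115718851 stood at 10.1 CPM in the Knox, 26.2 in the Madison and 21.8 in the Merick male, unlike LOC115719213, which was highest in Merick. LOC115695338 stood at 80.9, 85.2 and 63.0 CPM and LOC115695340 at 95.9, 141 and 73.4 CPM in the Knox, Madison and Merick males, so in this pair the order was the same. Whether these pairs are near-identical copies that share reads cannot be told from the tables, and their levels are uncertain to that extent.

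Genes next to the 75 genes were male-restricted about as often as those next to all genes at 5 CPM or more in each male. Only genes placed on a chromosome entered. Of 104 direct neighbours listed in the count tables, some without a read in any library, 1 was among the 228 male-restricted genes (0.96%). The share was 1.02% for neighbours of all genes at 5 CPM or more in each male. For those of the other 153 male-restricted genes it was 4.09%. The male-restricted neighbour of the 75 genes, LOC115721799 on chromosome 9, lies beside LOC115721798. It stood at 165 CPM in the Knox, 108 in the Madison and 46.2 in the Merick male, over the ratio limit, while LOC115721798 stood at 15.0, 12.8 and 9.86 CPM. The order of the males was the same and the steepness was not.

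With the sexes exchanged, the first and second limits were met by 7 genes and all 3 limits by 2, against 228 and 75. The 2 genes were LOC115712431, at 38.9, 13.8 and 14.0 CPM in the Knox, Madison and Merick females, and LOC115715877, at 8.39, 17.2 and 9.65 CPM in that order. Of the 12620 genes at 5 CPM or more in each female, 94.2% were within 3 times, against 81.9% of the 12128 such genes in males. Among genes that were not male-restricted, 82.8% were within 3 times over all 3 males. That share was 98.2% when the Merick library was dropped, 87.2% when Knox was dropped and 85.5% when Madison was dropped. With 2 males left the limit is easier to meet, and the female share was not taken over 2 libraries. How much of the difference between the sexes rests on the Merick male was therefore not tested. The Knox and Madison males correlated with each other within the range of the females.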

How the data were processed

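Each of the 6 libraries came with 1 table of raw gene counts, as the authors deposited them. The 5 closing rows carry names that htseq-count writes. Aligner, genome build, annotation and strand setting: not given in the sources used here. Overlapping, antisense and near-identical genes are therefore uncertain. Closing rows (14.9% to 18.1% of listed reads) entered neither library sizes nor tests. CPM used the sum of gene counts of each library. The 75 genes, the lists and the comparisons were chosen with earlier results of these data known. Male and female libraries were compared in edgeR 4.0.16 (R 4.3.3; TMM scaling, filterByExpr, robust quasi-likelihood test, Benjamini-Hochberg adjustment, threshold 0.05), tested on simulated data, and in DESeq2 1.42.0 as an alternative. Intervals are exact Poisson at 95% and, like the floor of 3 counts, cover counting error only.

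The named genes were the 8 with the highest lowest-male level, the 4 most even, the 3 nearest on each side of each limit, and those with the extreme Merick ratios. Direct neighbours, among genes placed on a chromosome, and genes with a common name were part of the rule, and there were none. Other genes were named after their values were seen. Protein and promoter sequences and gene lists by description were not used here. Libraries of one location were not taken to pair.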

Additional observations from a re-analysis of the deposited data

How the results depend on the processing

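The number of genes that met the rule stayed within 1.5 times of 75 in several settings. These were TMM or median-of-ratios scaling (67 each, 63 of them among the 75) and thinning to equal depth (75, of which 73 were shared). Female limits of 0.25 and 1 CPM (60 and 99), male limits of 2 and 10 CPM, and a ratio limit of 4 (101) were others. The low-count filter kept all 75, which the male limit of the rule set in advance. The number was 34 with a ratio limit of 2, and between 80 and 343 with 1 library left out. All genes called higher in male numbered 2424 with edgeR, 4103 with DESeq2, 1411 with location as a replicate block, and 114 to 4592 without one library; of the 75 genes, 75, 75, 73 and 46 to 75 were called, the lowest without the Madison male. The cause was not tested. No pairing by location was assumed. The female and male of a location deviated from their sex means with a correlation of 0.14 in Knox, 0.01 in Madison and 0.19 in Merick. Across locations the correlations ran from -0.24 (Merick female and Knox male) to 0.16 (Madison female and Knox male). The Madison female was thus closer to the Knox male than to the Madison male. Without the 5 genes highest by reads, the summed level was 2959 CPM in the Merick, 3768 in the Knox and 4162 in the Madison male, so the Madison male then exceeded the Knox male, as it also did with TMM scaling (7071 against 6982 CPM). The share of even genes among male-restricted genes ran from 38.3% to 89.3% without one male. For 19 named genes, 148 of 171 alternative log2 fold changes kept direction and call, 23 kept direction only and none reversed. The rule used the contrast of the sexes, so the direction of these genes was set in advance. Nothing is read from these counts or from those of the 75 genes called. The comparison of related proteins was not run.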
